A study of Homo sapiens with 9 samples.

Results

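The matrix metalloproteinase (MMP) genes described here are MMP1, MMP3, MMP7, MMP8, MMP10, MMP12 and MMP13, which were taken by symbol from a table of 19389 genes. They make up the collagenases, stromelysins, matrilysin and macrophage elastase of the gene cluster on the long arm of chromosome 11. All 7 were in the table and 6 were tested, because MMP8 never reached the minimum value set for testing.

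RNA was sequenced from SW1353, an established human chondrosarcoma line, in 9 libraries that formed 3 groups of 3. One group was untreated, and a second was exposed for 20 h to 20 ng/mL of the inflammatory cytokine interleukin-1β (IL-1β). The remaining group was given PBSL, a preparation from Protaetia brevitarsis seulensis larvae (a beetle), for 2 h and then the same IL-1β exposure. All groups were the same line, none received PBSL alone, and the PBSL concentration behind the sequenced libraries is not given. The labels do not say whether the libraries of a group came from separate cultures, so p-values measure only the spread between these libraries, which may be technical. As a stand-in for cartilage cells the line has a limit that the table shows: COL2A1 and COL9A1, which encode collagens that define cartilage, stayed below 0.1 in all 9 libraries, and 5 of 10 chondrocyte markers reached 1 in any library.

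MMPs are zinc-dependent proteases that are secreted as inactive proenzymes and cut matrix proteins once their propeptide is removed. Collagenases cleave the triple helix of fibrillar collagens, stromelysins cut many other matrix proteins and can activate other proMMPs, and matrilysin is a short MMP without the hemopexin-like domain. In osteoarthritic cartilage IL-1 is known to raise several of them through NF-κB and AP-1, and MMP13 is the collagenase best known for degrading the type II collagen of cartilage.

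The 7 genes all lie on the minus strand of chromosome 11 within 435 kb (GRCh38, GENCODE 29 annotation), from MMP7 at 102520508 to 102530753 to MMP13 at 102942995 to 102955734. Between them lie MMP8 (102711795 to 102727050), MMP10 (102770503 to 102780628), MMP1 (102789920 to 102798160), MMP3 (102835801 to 102843803) and MMP12 (102862736 to 102875034). The longest annotated transcript of each, whether coding or not, has 10 exons, except MMP7 with 4. That transcript need not be the one that encodes the protein. WTAPP1, a transcribed pseudogene on the plus strand (102746968 to 102836766), overlaps all 10126 bases of MMP10, all 8241 bases of MMP1 and 966 bases of MMP3. WTAPP1 itself was not analysed here. The library kit was directional, but the strand setting used for counting is not given, so for these 3 genes reads from the opposite strand could not be told apart if strand was not used.

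AP-1 is a dimer of Fos and Jun proteins that binds MMP promoters, so the proximal promoters of matrilysin and of stromelysin 2, the tested members for which the reference table held one, are shown. The sequences are the 250 bases before the RefSeq start in GRCh38.p14, minus strand, 5′ to 3′. Capitals mark the AP-1 or AP-1-like match and the TATA match.
MMP7, chr11:102530748-102530997: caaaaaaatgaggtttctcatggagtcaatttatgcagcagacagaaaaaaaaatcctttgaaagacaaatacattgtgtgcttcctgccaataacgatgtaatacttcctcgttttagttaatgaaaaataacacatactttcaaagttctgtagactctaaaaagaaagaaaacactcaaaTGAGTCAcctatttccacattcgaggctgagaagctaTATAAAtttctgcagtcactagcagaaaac
MMP10, chr11:102780629-102780878: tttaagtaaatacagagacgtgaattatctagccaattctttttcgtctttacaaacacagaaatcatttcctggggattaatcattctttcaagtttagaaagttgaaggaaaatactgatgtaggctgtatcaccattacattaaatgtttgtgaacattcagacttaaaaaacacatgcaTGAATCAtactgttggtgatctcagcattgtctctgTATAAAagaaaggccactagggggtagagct
The RefSeq promoter table held 3 of the 7 genes, these 2 and MMP8. The AP-1 letters TGAGTCA were searched on both strands and were found in MMP7 at -67 to -61, counted back from the start. MMP10 lacked them and held a match to the looser pattern TGANTCA, which includes the former, at the same -67 to -61. Of all 27305 promoters of this length, 4.16% held the strict form and 6.6% the looser form. The letters TATAAA on the gene's strand lay at -30 to -25 in MMP7 and at -31 to -26 in MMP10, and 7.17% of promoters held them. The ETS core AGGAAG, searched on both strands and present in 28.7% of promoters, occurred 2 times in MMP7 (-169 to -164 and -145 to -140) and 0 times in MMP10. No match to the NF-κB motif was in either window, against 9.57% of all promoters. The promoter of MMP8, a member that was not tested, was searched in the same way. Its window (chr11:102724955-102725204) lies inside the GENCODE 29 span of the gene given above, so the result holds for the RefSeq start alone. This window held 0 matches to the strict or the looser AP-1 form, 0 to the ETS core and 0 to the NF-κB motif. Its match to the letters sought on the gene's strand alone lay at -110 to -105. All of these are matches of letters and not measured binding sites.

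The deposited values were treated as normalized for transcript length and depth, and their sum was of similar size in all libraries (523758 to 553196). The number of reads behind a value is unknown. The 7 MMP genes together held 0.0252% to 0.0281% of the summed values in untreated libraries, 0.264% to 0.276% with IL-1β and 0.217% to 0.249% with PBSL and IL-1β. The first PBSL + IL-1β library stood apart from the other 2: on the second principal component (16.6% of the variance) it lay at 0.578, the others at 18.2 and 16.8, and the IL-1β libraries at -12.4 to -11.5. The first untreated library also differed from the other 2 in markers of other cell types. S100A8 and S100A9 stood at 8.49 and 16.3 in it and at 0.144 or less in the others, KRT5 at 3.24 against at most 0.868, and KRT19 at 7.95 against at most 0.732. Without that library the same 6 MMP genes were called higher with IL-1β, at log2 fold changes of 1.64 to 4.60. In bulk RNA, fewer cells expressing a gene and less RNA per cell cannot be told apart. Fold changes below were fitted with limma to log2(value + 1), a scale that understates changes of genes near or below 1, and a gene was called at an adjusted p under 0.05 over the 11924 genes tested.

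IL-1β raised every MMP of the cluster that could be tested. All 6 were called higher, where 16.2% of the 11924 genes were called higher and 16% lower. Their median log2 fold change was 3.35, and that of all genes tested was -0.00. MMP7 and MMP10 were under 1 in every untreated library and passed the filter through the libraries with IL-1β, so their being tested depended on the rise. With no filter on low values all 7 were called higher. On the log2(value + 1) scale MMP13 and MMP12 moved most, MMP1 and MMP3 followed, and MMP7 and MMP10 came last, while by the ratio of means MMP7 rose more than MMP3. The IL-1β libraries all lay above the untreated ones for each of the 6, as they did for 25.7% of all genes tested.

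**Figure D1:**
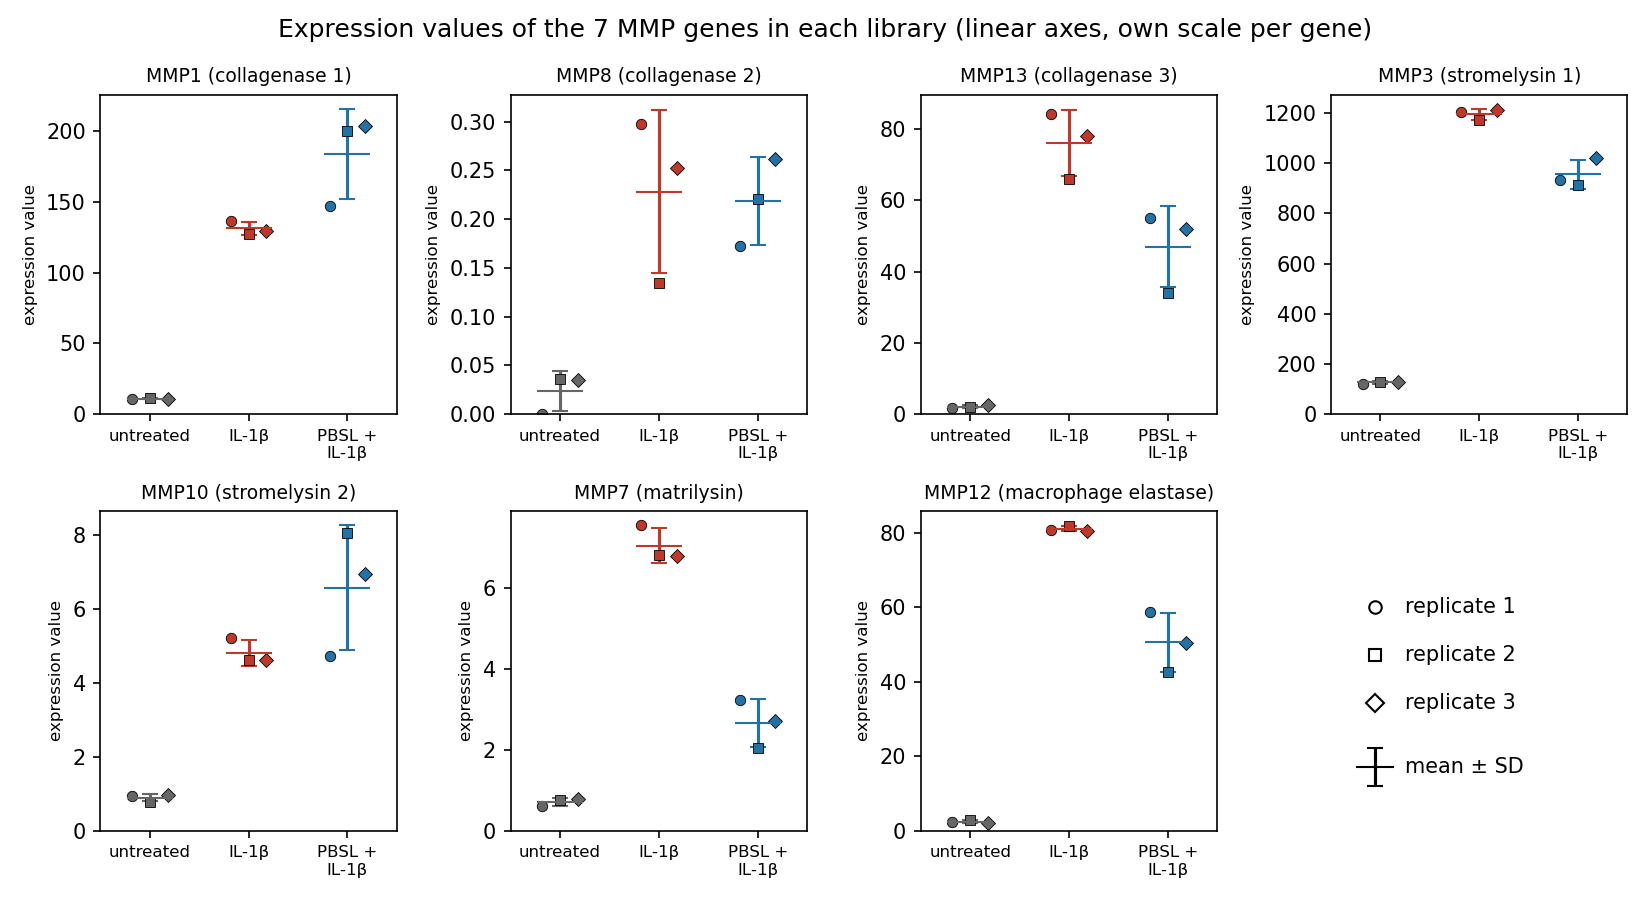
Expression values (linear axis, own scale for each gene) of the 7 MMP genes in each of the 9 libraries, with points for libraries and bars for mean ± SD over 3 libraries. All IL-1β points lie above all untreated points, and among the PBSL + IL-1β points those of MMP1 lie above the IL-1β points while those of MMP13, MMP3, MMP7 and MMP12 lie below them.

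Among the collagenases, MMP1 (interstitial collagenase) had values of 10.6, 11.2 and 10.8 in the untreated libraries and 137, 127 and 130 with IL-1β. The level rose 12.1-fold in the means, and the libraries within each group lay close together. The fitted log2 fold change was 3.48 (SE 0.101, 95% interval 3.26 to 3.70, adjusted p = 1.82e-10). MMP13 (collagenase 3) had 1.81, 2.08 and 2.53 in untreated libraries and 84.4, 66.1 and 78.0 with IL-1β. It stood at 0.197 of the MMP1 level in untreated cells and at 0.579 with IL-1β. Its fold of means was 35.6 and its log2 fold change 4.62 (SE 0.157, adjusted p = 8.06e-10), the 13th highest rise of all genes tested. MMP8, the collagenase known from neutrophils, had 0, 0.036 and 0.035 untreated and 0.297, 0.135 and 0.252 with IL-1β. These values are at most 8.49 times the smallest value seen for the gene, which was 0.035, so few reads can stand behind them. With no filter on low values the log2 fold change of MMP8 was 0.26 (SE 0.0499, adjusted p = 0.00557). The neutrophil markers MPO, CSF3R and FCGR3B stayed below 0.1 in every library. S100A8 and S100A9, which other cells also express, were the 2 of 7 neutrophil markers that reached 1, and the summed list ran from 0.401 to 25.2 untreated, where the highest value was that of the first library, from 19.1 to 26.4 with IL-1β and from 11.8 to 19.0 with PBSL and IL-1β.

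Of the stromelysins, MMP3 was the most abundant MMP of the cluster in all 9 libraries. Its values were 120, 129 and 130 in untreated libraries and 1203, 1170 and 1211 with IL-1β. The groups were far apart and the spread within each was small. It moved from between rank 605 and rank 679 of all genes by level to between rank 53 and rank 57. The fold of means was 9.44 and the log2 fold change 3.23 (SE 0.0555, 95% interval 3.11 to 3.35, adjusted p = 1.86e-12). MMP10 (stromelysin 2) had 0.945, 0.783 and 0.95 untreated and 5.21, 4.61 and 4.62 with IL-1β. Its log2 fold change of 1.62 (SE 0.136, adjusted p = 2.97e-06) corresponded to 5.39-fold in the means, the smallest rise of the 6.

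MMP7 (matrilysin), known mostly from epithelia, had 0.604, 0.746 and 0.780 in untreated libraries and 7.54, 6.80 and 6.79 with IL-1β. It rose 9.92-fold in the means from a level under 1. The log2 fold change was 2.23 (SE 0.110, 95% interval 1.99 to 2.48, adjusted p = 3.13e-08) with 1 added to each value and 3.15 with 0.1 added. The summed epithelial markers, of which 6 of 8 reached 1 and none stayed below 0.1 throughout, were lower with IL-1β: 139 to 162 untreated, 77.4 to 79.4 with IL-1β and 58.2 to 77.7 with PBSL and IL-1β. KRT8 and KRT18 made up most of the sum and were called lower with IL-1β (-1.09 and -0.85), while CLDN4 in the same list was called higher, from 1.67 to 4.39 (1.03). The part of these differences in the MMP7 result was not tested.

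MMP12 (macrophage elastase) had 2.28, 2.84 and 1.98 in untreated libraries and 80.9, 81.9 and 80.5 with IL-1β. The IL-1β libraries differed from each other by under 2 units. The fold of means was 34.2 and the log2 fold change 4.61 (SE 0.109, adjusted p = 2.96e-11), next to MMP13 at rank 14 of all rises. Of 9 macrophage markers, CD163 and ITGAM were below 0.1 in every library and 3 reached 1. Their sum, mostly CD68, ran from 72.7 to 80.1 untreated, 99.5 to 102 with IL-1β and 84.1 to 90.6 with PBSL and IL-1β.

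After PBSL the genes of the cluster did not move together. Relative to IL-1β alone, MMP7, MMP13, MMP12 and MMP3 were called lower, MMP1 was called higher, and MMP10 was not called. That was 1 higher and 4 lower of 6 tested, against 11.5% of all tested genes called higher and 11% lower. The PBSL + IL-1β libraries all lay above the IL-1β libraries for MMP1 and all below them for the 4, as they did for 21.7% and 20.1% of all genes tested. The median log2 fold change of the 6 was -0.50, and of all genes tested 0.01. This comparison and the one of IL-1β with untreated cells share the IL-1β libraries, so the values are given side by side and not correlated.

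**Figure D2:**
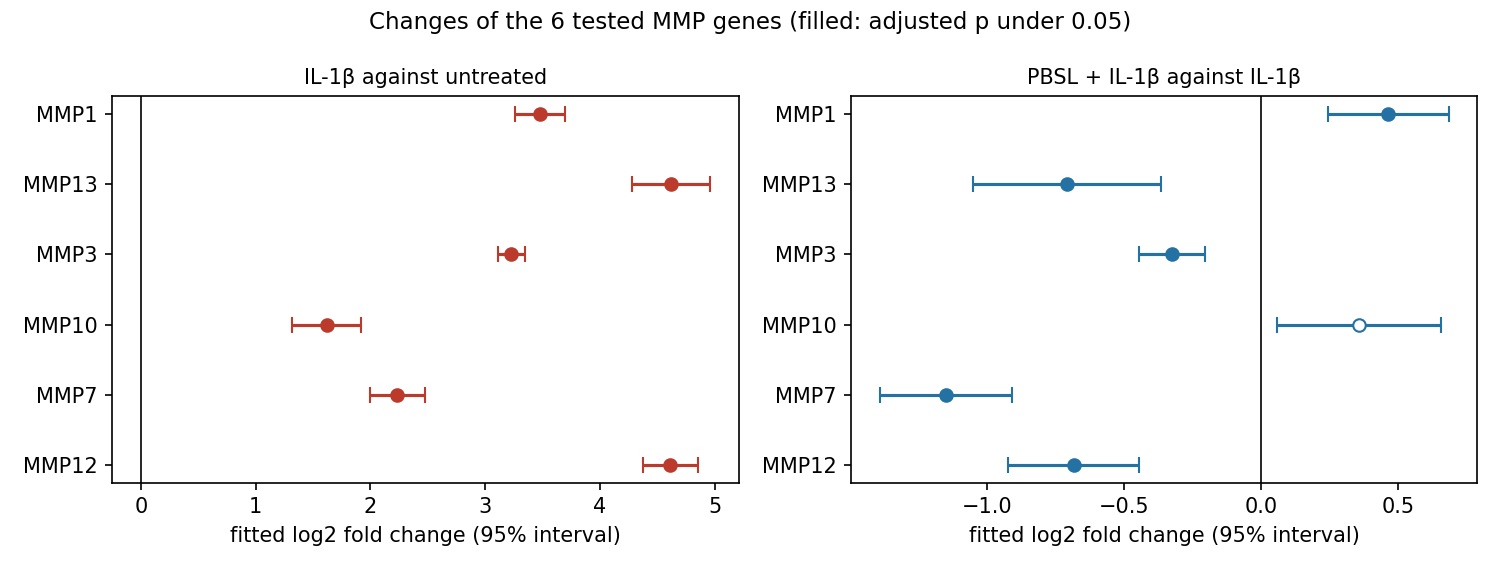
Fitted log2 fold change with its 95% interval (horizontal axis) for the 6 tested MMP genes in the comparison of IL-1β with untreated cells (left) and of PBSL + IL-1β with IL-1β (right); filled points passed an adjusted p of 0.05. On the left all intervals lie above 0, from MMP10 at 1.62 to MMP13 at 4.62, and on the right MMP7 is lowest at -1.15 and MMP1 highest at 0.47.

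The 2 tested collagenases went in opposite directions. MMP1 had 147, 200 and 203 in the PBSL + IL-1β libraries, all above the 127 to 137 of IL-1β alone, with the first library nearest to them. The mean was 39.8% higher, with a log2 fold change of 0.47 (SE 0.101, 95% interval 0.24 to 0.69, adjusted p = 0.00924). MMP13 had 55.2, 34.1 and 51.9, all below the 66.1 to 84.4 of IL-1β alone, and the second library was lowest. Its mean was lower by 38.2% (percent change -38.2), with a log2 fold change of -0.71 (SE 0.157, 95% interval -1.05 to -0.36, adjusted p = 0.0101). MMP8 had 0.172, 0.221 and 0.262, within the range of the IL-1β libraries, and without a filter its log2 fold change was -0.01 (adjusted p = 0.953).

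Of the stromelysins only MMP3 was called. MMP3 had 932, 912 and 1020 after PBSL, all below the 1170 to 1211 of IL-1β alone, and its log2 fold change was -0.32 (SE 0.0555, 95% interval -0.45 to -0.20, adjusted p = 0.00405), a percent change of -20.1 in the means. It still ranked between 62 and 79 among all genes. MMP10 had 4.73, 8.07 and 6.94, of which the first lay inside the 4.61 to 5.21 of IL-1β alone and the other 2 above it. The mean was 6.58 against 4.81, and the log2 fold change of 0.36 (SE 0.136, 95% interval 0.06 to 0.66) was not called (adjusted p = 0.0787). Without the first PBSL + IL-1β library, the one that stood apart, MMP10 was called higher at 0.55 (adjusted p = 0.00118), and over all 18 alternatives its fold change ran from 0.22 to 0.55.

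Matrilysin was the member that fell most. MMP7 had 3.22, 2.04 and 2.71 after PBSL, all below the 6.79 to 7.54 of IL-1β alone and all above the 0.604 to 0.780 of untreated cells. The log2 fold change was -1.15 (SE 0.110, 95% interval -1.39 to -0.91, adjusted p = 0.000839), the 10th largest fall of the 11924 genes, and the percent change of the means was -62.3. MMP12 had 58.7, 42.6 and 50.4, all below the 80.5 to 81.9 of IL-1β alone. Its log2 fold change was -0.68 (SE 0.109, 95% interval -0.92 to -0.44, adjusted p = 0.0036) and the percent change of the means -37.7. The first PBSL + IL-1β library held the value nearest to IL-1β alone for MMP1, MMP7, MMP12 and MMP13, and for MMP3 the third library did.

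The changes can also be placed on a scale from the untreated mean (0%) to the IL-1β mean (100%). MMP7 stood at 39.6%, 20.9% and 31.5% in the 3 PBSL + IL-1β libraries, lowest of the 6. MMP12 stood at 71.5%, 51.1% and 61.0%, MMP13 at 71.7%, 43.2% and 67.2%, and MMP3 at 75.4%, 73.5% and 83.7%. Over these 4 genes and the 3 libraries the share ran from 20.9% to 83.7%. MMP1 stood above the IL-1β mean at 113%, 157% and 160%, and MMP10 at 98.0%, 183% and 154%.

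**Figure D3:**
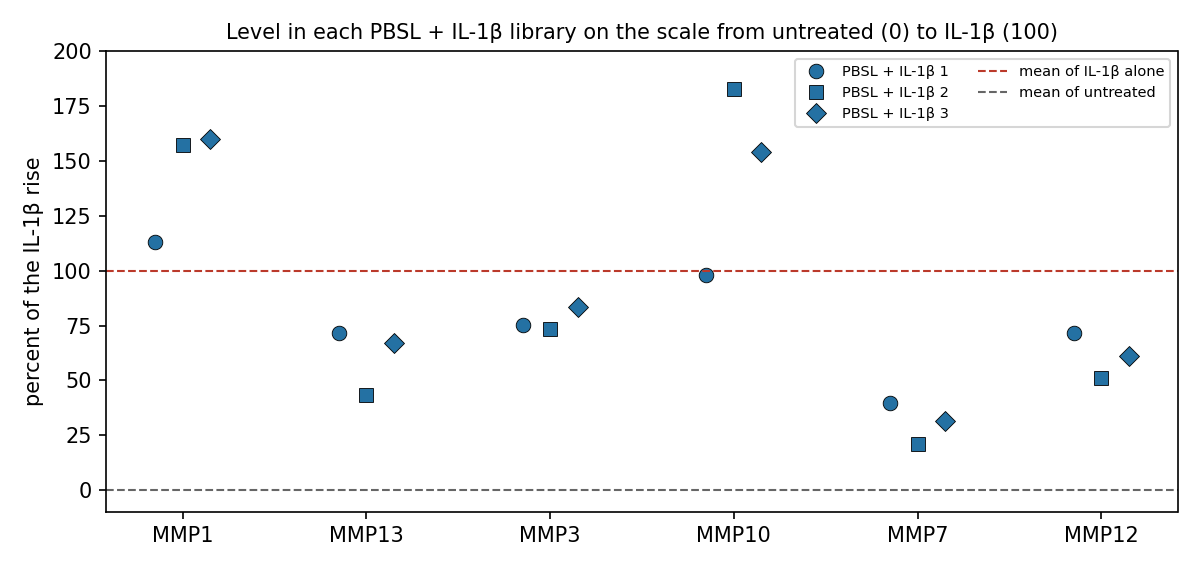
Level of each tested MMP gene in each PBSL + IL-1β library as a percent of the IL-1β rise (vertical axis), where 0 is the untreated mean and 100 the IL-1β mean. MMP7 lies lowest at 20.9% to 39.6%, and MMP1 lies above 100% in all 3 libraries.

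Against untreated cells, all 6 stayed higher after PBSL and IL-1β, where 22.3% of tested genes were called higher and 19.3% lower. The log2 fold changes were 3.94 for MMP1, 3.93 for MMP12, 3.91 for MMP13, 2.90 for MMP3, 1.98 for MMP10 and 1.08 for MMP7, each with an adjusted p of at most 1.33e-05. The folds of the means ran from 3.74 for MMP7 to 22 for MMP13. The median of the 6 was 3.41, beside 0.03 for all genes tested.

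The order of the levels changed at the lower end. In untreated cells the means ran MMP3 at 127 ± 5.64, MMP1 at 10.9 ± 0.296, MMP12 at 2.37 ± 0.436, MMP13 at 2.14 ± 0.364, MMP10 at 0.893 ± 0.0950, MMP7 at 0.710 ± 0.0934 and MMP8 at 0.0237 ± 0.0205 (SD, n = 3). MMP12 and MMP13 were neighbours whose libraries overlapped in all 3 groups. With IL-1β the means were 1195 ± 21.7 for MMP3, 131 ± 4.82 for MMP1, 81.1 ± 0.676 for MMP12, 76.2 ± 9.26 for MMP13, 7.04 ± 0.434 for MMP7, 4.81 ± 0.347 for MMP10 and 0.228 ± 0.0836 for MMP8 (SD, n = 3), with MMP7 above MMP10. After PBSL MMP10 lay above MMP7, at 6.58 ± 1.70 and 2.65 ± 0.595 (SD, n = 3). The libraries of these 2 genes did not overlap with IL-1β or after PBSL. In untreated libraries both were under 1, and the lowest MMP10 value (0.783) hardly exceeded the highest MMP7 value (0.78). Their order in untreated cells is therefore uncertain. MMP3 made up 88.0% to 88.4% of the summed values of the 7 genes in untreated libraries, 79.2% to 80.3% with IL-1β and 76.0% to 77.6% after PBSL. The share of MMP1 was 7.36% to 7.77%, 8.58% to 9.0% and 12.2% to 16.7%.

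A ratio of 2 values within a library does not depend on how that library was scaled. The ratio of MMP1 to MMP3 was 0.0860 on average in untreated cells, 0.110 with IL-1β and 0.192 after PBSL, with no overlap between libraries of different groups. On the scale log2((value + 1)/(value + 1)) it differed by 0.25 between IL-1β and untreated cells and by 0.79 between PBSL + IL-1β and IL-1β. The ratio of MMP13 to MMP1 went from 0.197 to 0.579 with IL-1β and was 0.267 after PBSL, differences of 1.14 and -1.17 on the log2 scale. The ratio of MMP13 to MMP3 differed by 1.39 and then by -0.38, and the ratio of MMP10 to MMP3 by -1.61 and then by 0.68. The -1.61 became -0.93 with 0.1 added in place of 1, since MMP10 was under 1 in untreated cells. The 2-sided exact permutation test gave p = 0.1 for 7 of these 8 differences, the smallest p that 3 against 3 libraries allow (0.114 after adjustment over the 8), and p = 0.2 for MMP13 to MMP3 after PBSL, where the libraries overlapped. No ratio could thus pass 0.05.

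**Figure D4:**
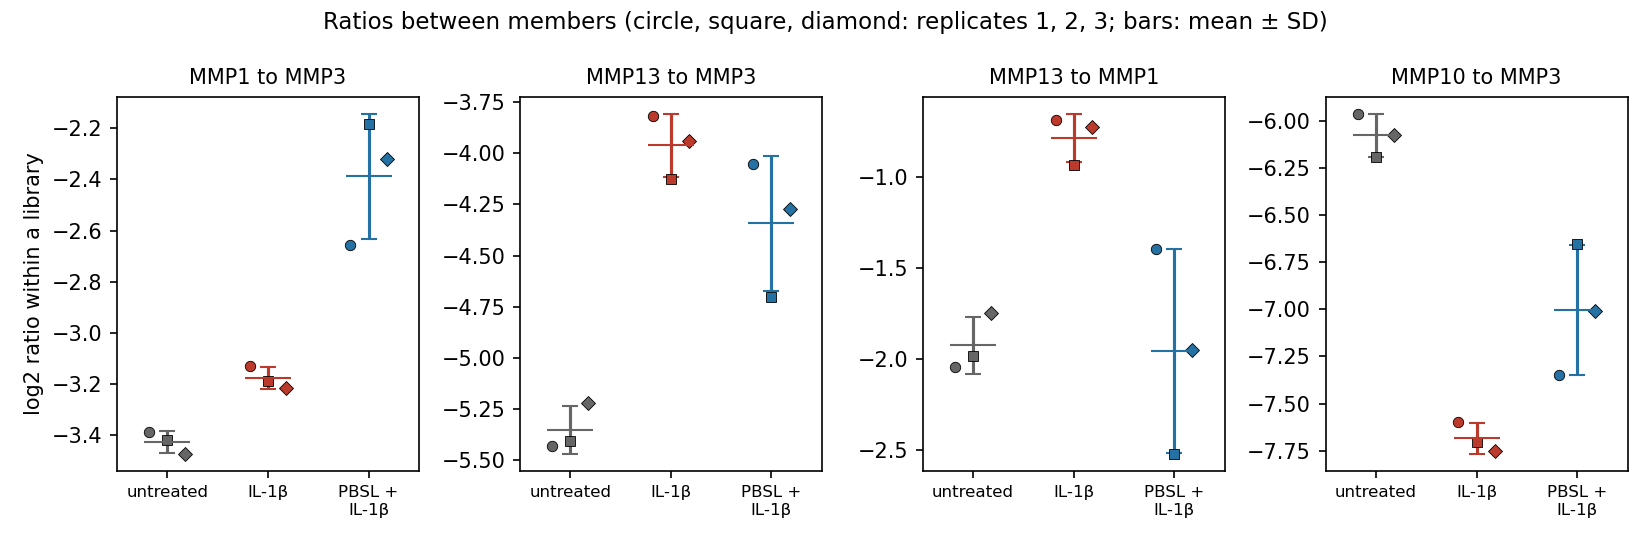
Log2 ratio of 2 MMP genes within each library (vertical axis, own scale for each pair) in the 3 groups, with bars for mean ± SD over 3 libraries. MMP1 to MMP3 is highest after PBSL, at -2.39 on average against -3.18 with IL-1β alone, and MMP13 to MMP1 falls back from -0.78 to -1.96.

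Along the cluster, fold changes after PBSL were below 0 for MMP7, above 0 for MMP10 and MMP1, and below 0 for MMP3, MMP12 and MMP13. MMP10, which was not called, and MMP1 are neighbours 9.29 kb apart, and MMP3, the next gene at 37.6 kb from MMP1, was lower. A link between position and direction was not tested. Of the 15 other cluster and flanking genes that the table held, 9 were tested. IL-1β raised 2 of them and lowered 2, with a median of -0.00, against 16.2% of all genes tested called higher and 16% lower. BIRC3, an inhibitor of apoptosis and a known NF-κB target, lies beyond TMEM123 and BIRC2 on the MMP7 side of the cluster. It rose from 0.407 ± 0.109 to 14.7 ± 0.349 (SD, n = 3, log2 fold change 3.48, adjusted p = 2.04e-11), and its neighbour BIRC2 rose from 76.0 to 133 (0.80). BIRC3 was under 1 in every untreated library, so its being tested depended on the rise. PDGFD, a growth factor, and CFAP300, a cilia gene, were lower at -0.84 and -0.57. After PBSL 0 of the 9 were higher and 3 lower, with a median of -0.07: BIRC3 at -0.36 (adjusted p = 0.00885), which lost its call with 0.1 added to each value (adjusted p = 0.057), TMEM123 and PDGFD. Leaving out 1 IL-1β library left 1 of these 3 calls. With all libraries, 11.5% of all genes tested were called higher after PBSL and 11% lower. MMP20, the enamel protease inside the cluster, did not exceed 0.025 in any library, and MMP27 was listed at 0 in all 9.

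**Figure D5:**
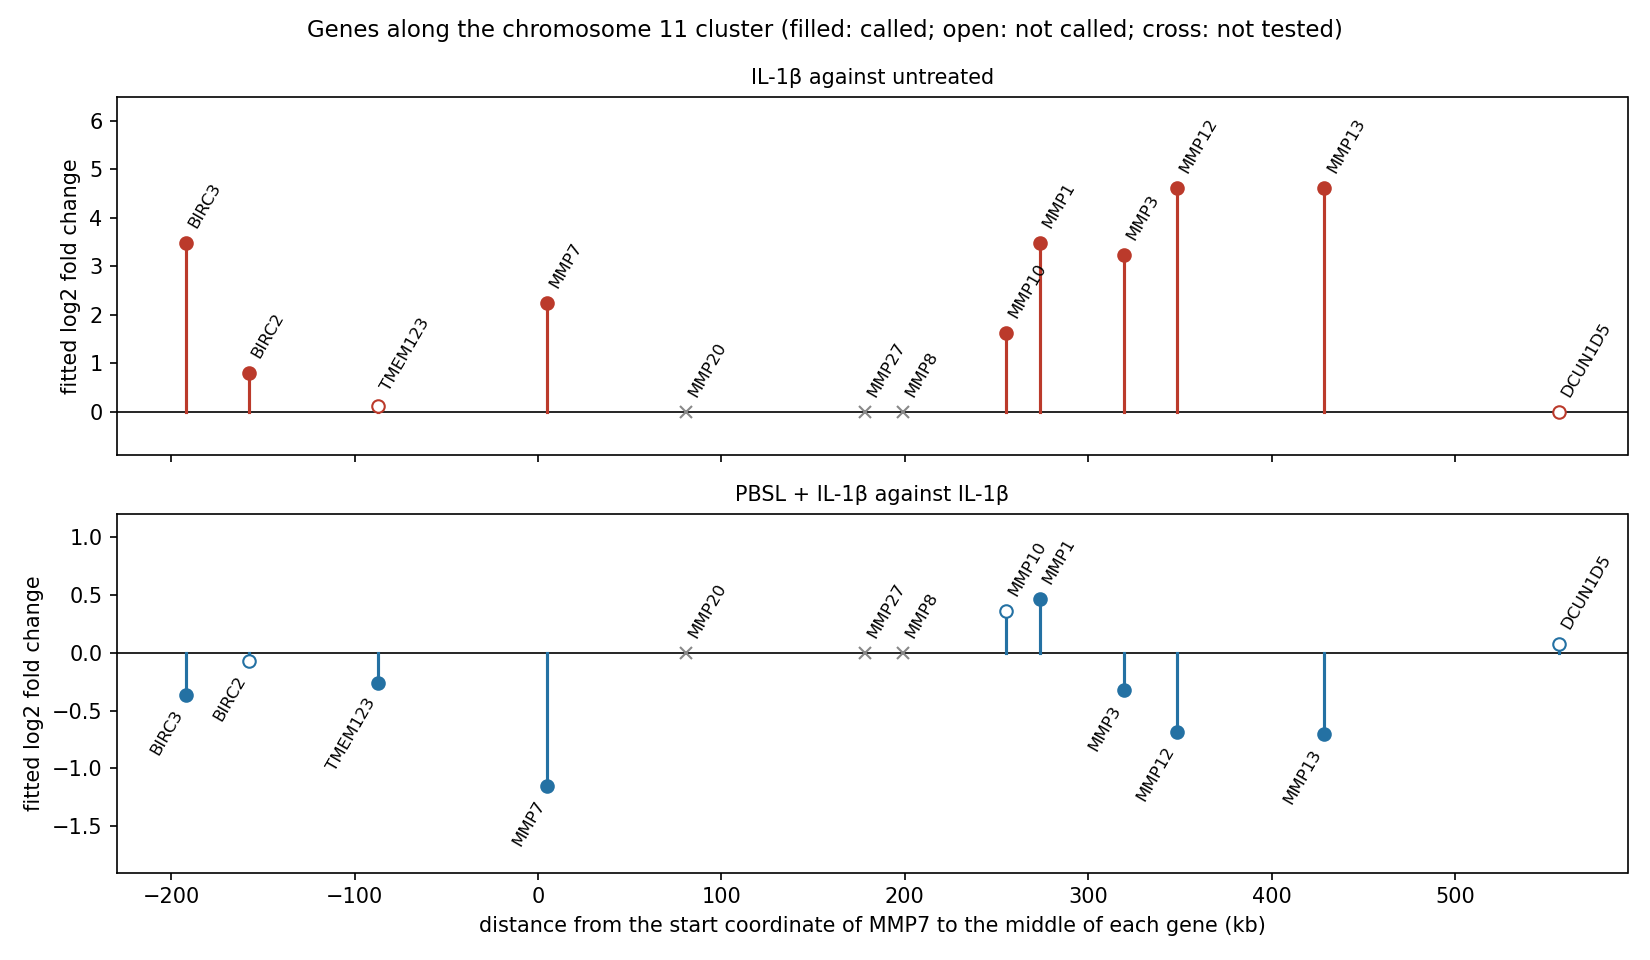
Fitted log2 fold change (vertical axis) of the genes along the chromosome 11 cluster, against the distance of each gene's middle from the start coordinate of MMP7 in kb, for IL-1β against untreated cells (top) and PBSL + IL-1β against IL-1β (bottom). Filled points were called, open points were not, and crosses mark genes below the filter, and in the lower panel MMP1 and MMP10 lie above 0 between lower neighbours that were tested.

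Of 14 MMP genes elsewhere in the genome, 8 were tested. With IL-1β 3 rose and 3 fell (median 0.02), against 16.2% and 16% of all genes tested. MMP9 (gelatinase B) rose from 1.48 to 9.47 (log2 fold change 2.07) and MMP14, a membrane-bound MMP that activates proMMP2, from 270 to 378 (0.48, adjusted p = 4.78e-05). MMP2 (gelatinase A) rose from 553 to 633 (0.20, adjusted p = 0.0245), a call lost in 5 of 18 alternatives, including those without any 1 IL-1β library or without the first untreated library, with an adjusted p up to 0.104. MMP24 and MMP16, both membrane-type, were lower at -0.72 and -0.53. After PBSL 1 was higher and 3 lower (median -0.16), against 11.5% and 11% of all genes tested. MMP9 had 10.8, 20.6 and 13.9, all above the 8.42 to 10.1 of IL-1β alone, at 0.58 (adjusted p = 0.0322), a call lost in 7 of 18 alternatives (adjusted p up to 0.110), and its fold change was 0.34 without the second PBSL + IL-1β library. The call was lost without any 1 IL-1β library and without the second or the third PBSL + IL-1β library. MMP2 fell by 0.30 on the log2 scale, from 633 to 513 (adjusted p = 0.00592), MMP24 by 0.45 and MMP19 by 0.41, and MMP14 was not called (-0.10, adjusted p = 0.223). The MMP24 call was lost in 4 of 17 alternatives (adjusted p up to 0.0635), without the second or the third library of either IL-1β group.

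The list for activation of proMMPs, directly or through plasmin, held 13 genes, with 7 tested. It covers proteases and the urokinase receptor, and whether each acts on proMMPs was not examined. TMPRSS2, a membrane serine protease, passed the filter only through the IL-1β libraries, so its values are given without a test: 0.184, 0.164 and 0.131 untreated, 1.66, 1.24 and 1.40 with IL-1β, and 0.962, 0.88 and 0.957 after PBSL. Of the other 6, IL-1β raised 3 and lowered 0 (median 0.14), against 16.2% and 16% of all genes tested. Without any 1 IL-1β library 2 of the 6 were called. PLAUR, the urokinase receptor, rose from 33.1 to 51.7 (0.63). PLAU (urokinase) was below the filter, at 1.05, 0.781 and 0.917 untreated, 0.563, 0.565 and 0.387 with IL-1β, and 0.642, 0.201 and 0.152 after PBSL. After PBSL 0 of the 6 were higher and 2 lower (median -0.06), against 11.5% and 11% of all genes tested. HTRA1, a secreted serine protease, was 1 of the 2 and fell from 108 to 87.6 (-0.30, adjusted p = 0.00824). Leaving out 1 IL-1β library, or the second or the third PBSL + IL-1β library, left 1 of these calls.

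Inhibitors and clearance receptors were 12, with 9 tested. With IL-1β 5 rose and 1 fell (median 0.31), against 16.2% and 16% of all genes tested. SERPINB2, an inhibitor of urokinase, rose from 3.38 to 240 (log2 fold change 5.79) and TFPI2, a serine protease inhibitor of the matrix, from 0.449 to 1.60 (0.84). TFPI2 was under 1 in every untreated library, so its being tested depended on the rise. Of the tissue inhibitors that bind active MMPs, TIMP3 rose from 141 to 175 (0.31, adjusted p = 0.00754), TIMP2 fell from 179 to 156 (-0.19, adjusted p = 0.0153), and TIMP1 was not called at 316 and 367 (0.22, adjusted p = 0.0822). In 3 of 18 alternatives TIMP1 was called higher with IL-1β. These were the fit of only the 2 groups compared (adjusted p = 0.00253) and those without the first or the second PBSL + IL-1β library (0.0276 and 0.0106). The TIMP2 call was lost without the first or the third IL-1β library or the third untreated library, with an adjusted p up to 0.07. After PBSL 2 were higher and 5 lower (median -0.18), against 11.5% and 11% of all genes tested. TIMP3 had 146, 115 and 122, all below the 174 to 177 of IL-1β alone (-0.46, adjusted p = 0.00387). TIMP1 had 355, 477 and 392.3, overlapping IL-1β alone (0.14, adjusted p = 0.267), and was called higher without the first PBSL + IL-1β library (adjusted p = 0.033). TIMP2 was lower at -0.18 (adjusted p = 0.0326), and TFPI2 and SERPINB2 were higher at 0.71 and 0.30. These last 3 calls were lost in 7, 5 and 7 alternatives, with adjusted p up to 0.108, 0.0852 and 0.108, including those without the first IL-1β library or without the second or the third PBSL + IL-1β library. Without any 1 of these 3 libraries 0 of the list were called higher.

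Of 26 genes for transcription factors and regulators known at MMP promoters, 21 were tested. With IL-1β 17 rose and 3 fell (median 0.47), against 16.2% and 16% of all genes tested. REL, 1 of the 17, reached 1 in only 1 untreated library, so its being tested depended on the rise. RELB, an NF-κB subunit, rose from 2.08 to 18 and NFKBIZ, an NF-κB cofactor, from 3.10 to 24.2, both at a log2 fold change of 2.62. EGR1 fell by 0.95 and ETV5 by 0.56 on the log2 scale. After PBSL 16 of the 21 were not called, as were 9240 of all 11924 genes tested, and the list median was -0.00. RELB (-0.09, adjusted p = 0.426) and NFKBIZ (-0.04, adjusted p = 0.67) were among the 16. Of the AP-1 members, FOSL1 had 89.6, 113 and 106, all above the 72.2 to 76.2 of IL-1β alone (0.46, adjusted p = 0.00389), and FOSL2 had 113, 90.7 and 97.8, all below the 127 to 129 of IL-1β alone (-0.35, adjusted p = 0.00751). With IL-1β alone the same 2 genes had moved the other way, FOSL1 by -0.31 and FOSL2 by 0.38 against untreated cells. Both comparisons share the IL-1β libraries, so the opposite directions are not independent of each other. After PBSL EGR1 was lower at -0.68 and JUNB at -0.34, and ETV5 was higher at 0.36. The JUNB and ETV5 calls were lost in 6 and 12 of 18 alternatives (adjusted p up to 0.0972 and 0.157), including those without any 1 IL-1β library or without the second or the third PBSL + IL-1β library.

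In the list of IL-1 receptor signalling, 19 of 21 genes were tested. With IL-1β 9 rose and 1 fell (median 0.11), against 16.2% and 16% of all genes tested. Among the 9, IL1A and IL1RN were under 1 in every untreated library. IL1B and MAP3K8 reached 1 in only 1 untreated library and IRAK2 in 2. For all of these genes, being tested depended on the rise. IL1B itself rose from 0.921 to 111 (5.88) and TNFAIP3, an NF-κB feedback inhibitor, from 2.09 to 24.9 (3.08). DUSP1, a MAP kinase phosphatase, was lower at -0.32 (adjusted p = 0.0281), a call lost in 6 of 18 alternatives (adjusted p up to 0.103), including those without any 1 IL-1β library or without the first or the second untreated library. After PBSL 16 of the 19 were not called (median -0.01), as were 9240 of all 11924 genes tested. The receptor IL1R1 was among the 16, at 15.9 and 14.5 (-0.14, adjusted p = 0.297). IL1RN, which encodes the IL-1 receptor antagonist, had 10.4, 17.4 and 16.7, all above the 7.13 to 9.0 of IL-1β alone (0.82, adjusted p = 0.00542). DUSP1 was lower at -0.72 (adjusted p = 0.00282) and MYD88, the receptor adaptor, at -0.29, a call lost in 6 of 18 alternatives (adjusted p up to 0.112), including those without any 1 IL-1β library or without the second or the third PBSL + IL-1β library.

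Among 19 genes for MMP substrates, 16 were tested. With IL-1β 7 rose and 1 fell (median 0.14), against 16.2% and 16% of all genes tested. ACAN, 1 of the 7, was under 1 in every untreated library, so its being tested depended on the rise. DCN (decorin) rose from 11.8 to 128 (3.34) and FN1 (fibronectin) from 763 to 1337 (0.81). COL4A1 was lower at -0.21, a call lost without the second IL-1β library or the first untreated library (adjusted p up to 0.0781). After PBSL 14 of the 16 were lower and 1 higher (median -0.43), against 11% and 11.5% of all genes tested. Without any 1 library between 11 and 14 were lower. COL1A2, a chain of type I collagen, went from 787 to 462 (-0.79, adjusted p = 0.00264) and COL3A1 from 6.97 to 3.58 (-0.82, adjusted p = 0.00337). CD44, a receptor for hyaluronan, was higher at 0.22 (adjusted p = 0.0262), a call lost in 7 of 18 alternatives (adjusted p up to 0.10), including those without any 1 IL-1β library or without the second or the third PBSL + IL-1β library.

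The genes whose pattern over the 9 libraries was most like a member's were found by Pearson's r of log2(value + 1) among 588 genes that varied. The libraries share the group structure, so these r describe patterns and carry no p. MMP1 was most like IL36G, WTAP and FDCSP (r of 0.998 each). WTAP, from which the pseudogene WTAPP1 over MMP1 derives, had means of 46.9, 134 and 153 in the untreated, IL-1β and PBSL + IL-1β groups. MMP10 was most like MMD, KRT75 and ITGA2 (0.996, 0.996 and 0.993). MMP3 was most like BIRC3, DCN and CXCL5 (0.998 each), MMP12 like CXCL5, DCN and CCL3 (0.999, 0.998 and 0.998), and MMP13 like FBXO32, DCN and C1R (0.999, 0.998 and 0.997). DCN was among the nearest 3 of MMP3, MMP12 and MMP13. MMP7 had the least close neighbours, OLR1, NRP2 and CCL8 (0.992, 0.989 and 0.988). OLR1, a scavenger receptor, had means of 0.753, 8.13 and 3.09 over the 3 groups, beside 0.710, 7.04 and 2.65 for MMP7. Between members, r ran from 0.716 for MMP7 with MMP10 to 0.996 for MMP3 with MMP12.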

How the data were processed

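RNA was measured in 9 SW1353 libraries, 3 per group, grouped by the labels. Per the submitters' processing notes, Trim Galore, STAR, HTSeq and hg38 were used; versions, annotation, strand setting and handling of reads shared by similar genes are not given in the sources used here. The authors deposited 1 table of expression values, used here as a signal normalized for transcript length and depth. Whether it is FPKM or TPM is not given in the sources used here, and it does not hold counts. Smallest nonzero values fell with transcript length (slope -1.03 on log2 scales over 1672 low genes), but read depth was not recovered. The table held 0 columns of other samples.

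Genes that reached 1 in 3 or more libraries were tested (11924 of 19389). limma 3.58.1 in R 4.3.3, with a variance trend, was fitted to log2(value + 1) in all 9 libraries, with group means and 6 residual degrees of freedom, with Benjamini-Hochberg adjustment over all genes tested and a threshold of 0.05, 2-sided. The fit was tested on simulated data. Ratios used exact permutation tests in Python 3.11.15 (numpy 2.4.6, pandas 2.3.3, scipy 1.17.1); figures used matplotlib 3.10.9. Alternatives changed the pseudocount, filter, scaling, variance model, groups fitted or replicate block, or left out 1 library.

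The members, gene lists and naming rule were chosen with earlier results of these data known. The rule named all 7 members, the 2 largest called changes per list and direction, 8 genes always (TIMP1, TIMP2, TIMP3, MMP2, MMP14, PLAU, BIRC3 and IL1R1), and the 3 genes most like each tested member, with a highest group mean of at least 5 and a log2 range of at least 1. JUNB, TMEM123, MMP20 and MMP27, RELB and NFKBIZ after PBSL, and FOSL1 and FOSL2 with IL-1β alone were named outside it after their values were seen. A gene of the inhibitor list that the rule takes is not reported here. Lists were described for 2 of the 3 comparisons. Positions are from GENCODE 29 and promoters from RefSeq (GRCh38.p14).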

Additional observations from a re-analysis of the deposited data

How the results depend on the processing

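Over 18 alternatives and 3 comparisons, 323 of 324 fold changes of the 6 tested genes kept their direction and their side of the threshold, and none reversed. The exception was MMP10 after PBSL, which was called higher without the first PBSL + IL-1β library. The number of members called higher after PBSL was therefore 1 to 2 when 1 library was left out, while 4 stayed lower. MMP7, MMP12, MMP13, MMP3 and MMP1 were called in all 18 alternatives after PBSL, with adjusted p up to 0.0152, 0.018, 0.0431, 0.0212 and 0.0427. MMP7 passed the stricter filter, at least 5 in at least 3 libraries, only through the IL-1β libraries, where it was highest. Its calls under that alternative are therefore not separate support. Over all genes, calls after PBSL numbered 2684 and ran from 1304 without the second IL-1β library to 3910 without the first PBSL + IL-1β library. They were 1451 and 1355 without the first and the third IL-1β library, and 1434 without the second PBSL + IL-1β library. Median-ratio rescaling moved the median of all genes after PBSL from 0.01 to 0.00095. The 72 alternative ratios kept their sign.

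The labels do not say whether same-numbered libraries were handled together. Residuals of same-numbered libraries correlated at -0.225 to 0.0681, those of other numbers at -0.111 to 0.196. These values show no common shift by number, but cannot tell how the libraries were made. With the replicate number as a block, 6 members stayed higher with IL-1β, 1 stayed higher and 4 lower after PBSL, and calls over all genes were 3479 in place of 3831 and 2131 in place of 2684.

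Read depth is unknown, so the precision of low values such as those of MMP8 cannot be given.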
